A study of Mus musculus with 6 samples.

Results

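The 10 genes described here encode the parts of the major histocompatibility complex (MHC) class I pathway that make, carry and display peptides, and they were taken from the liver RNA-seq by their symbols. The list holds the class I heavy chain genes H2-K1 and H2-D1, the light chain gene B2m, the peptide loading genes Tap1, Tap2 and Tapbp, the immunoproteasome genes Psmb8, Psmb9 and Psmb10, and the proteasome activator gene Psme1. All 10 were found among the 23284 genes listed, and all 10 were among the 12559 that passed edgeR's filter on low counts. The libraries came from livers of C57BL/6 mice, 8 weeks old, that were fasted overnight and then received vehicle or 1 mg/kg FGF19 for 6 h while still fasted. FGF19 is the human gut hormone whose mouse counterpart is FGF15. Each group held 3 mice, with 1 library from each mouse. The mice were given the human protein, at a single dose and a single time, so that the values describe only that dose and time. The comparison asked whether FGF19 changed the RNA levels of this pathway in the liver.

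Cells display peptides of their own proteins on class I molecules, where CD8 T cells can inspect them. The proteasome cuts the proteins, the transporter made of TAP1 and TAP2 moves the peptides into the endoplasmic reticulum, and tapasin (Tapbp) holds empty class I molecules beside the transporter until a peptide binds. Interferon-γ is the classical inducer of the pathway, and it also switches the catalytic subunits of the proteasome: PSMB8, PSMB9 and PSMB10 take the places of PSMB5, PSMB6 and PSMB7. NLRC5, IRF1 and NF-κB are known activators of class I transcription. In liver, hepatocytes and the other cells of the tissue all carry these molecules.

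The 6 libraries held between 18994654 and 22920056 counts. All 8 hepatocyte markers on the list were measured, and Alb was at 68240 to 70450 CPM (counts scaled to a common library total) in the Vehicle libraries and at 63530 to 68980 CPM in the FGF19 libraries. Of these markers 7 of 8 had a negative log2 fold change, with a median of −0.19, and 0 were called by edgeR, DESeq2 or limma-voom. At an unadjusted p under 0.05, where 11.3% of all genes tested were lower by edgeR, 3 were lower by each tool, Cps1, Hnf4a and Ass1. Their edgeR log2 fold changes were −0.35, −0.31 and −0.36. Every FGF19 library was below every Vehicle library in these 3 genes, which held for 13.8% of all genes tested. Their part in the results was not tested. A count of 0 allows up to 3 counts, between 0.131 and 0.158 CPM, and this limit covers counting error only. CPM values were scaled by edgeR's TMM method. Raw counts were tested with the quasi-likelihood method of edgeR, and each adjusted p is by Benjamini-Hochberg over the 12559 genes.

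The genome places 7 of the 10 genes on chromosome 17, where the mouse MHC lies. In build mm9, Psmb9, Tap1, Psmb8 and Tap2 fill a block of 34.2 kb at chr17:34319044-34353266 that holds no other listed gene. Tapbp lies at chr17:34056423-34066235, H2-K1 at chr17:34132957-34137278 and H2-D1 at chr17:35400039-35404442. B2m lies at chr2:121973423-121978818, Psmb10 at chr8:108459628-108462292 and Psme1 at chr14:56197331-56200364. Psmb9 is read from the minus strand and Tap1 from the plus strand, so that the 2 genes start back to back, with 225 bases between them. That stretch, chr17:34324276-34324500 in mm9 on the plus strand, is printed because Psmb9 passed the test for FGF19 and Tap1 did not, a difference that was not itself tested. It ends with the base before the start of Tap1.

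Psmb9-Tap1: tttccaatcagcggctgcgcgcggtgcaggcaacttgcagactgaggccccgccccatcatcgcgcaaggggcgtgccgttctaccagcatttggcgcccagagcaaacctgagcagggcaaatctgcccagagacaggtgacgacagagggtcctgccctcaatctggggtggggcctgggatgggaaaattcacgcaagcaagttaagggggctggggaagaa

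The upstream sequences of 9 of the 10 genes were matched in RefSeq (build GRCm38.p6), all except Tap2, as windows of 300 bases from 250 before the start to 50 after it. Each window was searched on both strands for letters like those bound by interferon-activated factors (ISRE, GAAA and again GAAA with any 2 bases between, and GAS, TTC and GAA with any 3 bases between), for the NF-κB motif by its 10-base consensus (kB), and for the endoplasmic reticulum stress element (ERSE, CCAAT and CCACG with any 9 bases between). Some kB matches overlap each other. Of all 32851 windows, 3.44% held the ISRE letters, 8.30% the GAS letters, 4.51% a kB match and 0.119% the ERSE letters. The 250 bases before the start are printed for the 3 class I chains, whose windows hold kB matches, and for Psmb8, the window with a GAS match. Capitals mark the matched letters.

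H2-K1: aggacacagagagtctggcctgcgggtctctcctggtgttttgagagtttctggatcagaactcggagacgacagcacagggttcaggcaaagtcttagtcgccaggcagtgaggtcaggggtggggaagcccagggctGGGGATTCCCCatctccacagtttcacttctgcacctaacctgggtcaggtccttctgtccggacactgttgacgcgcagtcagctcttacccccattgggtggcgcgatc

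H2-D1: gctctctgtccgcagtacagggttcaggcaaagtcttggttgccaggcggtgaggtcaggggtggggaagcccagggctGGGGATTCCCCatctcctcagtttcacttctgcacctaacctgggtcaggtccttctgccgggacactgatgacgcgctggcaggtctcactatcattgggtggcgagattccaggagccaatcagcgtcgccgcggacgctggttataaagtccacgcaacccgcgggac

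B2m: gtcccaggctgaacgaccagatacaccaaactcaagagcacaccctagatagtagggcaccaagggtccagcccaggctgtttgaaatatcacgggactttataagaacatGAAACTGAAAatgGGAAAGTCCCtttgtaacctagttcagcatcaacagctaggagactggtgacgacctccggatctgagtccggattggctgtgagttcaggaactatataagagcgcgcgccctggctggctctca

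Psmb8: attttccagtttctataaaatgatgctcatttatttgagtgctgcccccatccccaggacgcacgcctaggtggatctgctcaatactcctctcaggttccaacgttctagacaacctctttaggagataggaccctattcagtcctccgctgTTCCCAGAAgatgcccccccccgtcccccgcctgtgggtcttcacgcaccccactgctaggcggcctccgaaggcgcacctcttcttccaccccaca

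These sequences run 5′ to 3′ on the strand of the gene, at chr17:34000348-34000597 on the minus strand for the first listed start of H2-K1, chr17:35262844-35263093 on the plus strand for H2-D1, chr2:122147437-122147686 on the plus strand for B2m and chr17:34197945-34198194 on the plus strand for Psmb8, all in GRCm38.p6. H2-K1 and H2-D1 hold the same run of matched letters, GGGGATTCCCC, and their windows were identical at 88.3% of 239 aligned bases. B2m holds GAAACTGAAA, which matches ISRE, and GGAAAGTCCC, which matches kB. Psmb8 holds TTCCCAGAA, a GAS match. Psme1 holds TTTCGCTTTC, an ISRE match on the other strand, from base 10 to base 19 after the start. The windows of Tap1, Tapbp, Psmb9 and Psmb10 held none of the letters searched, and neither did the stretch between Psmb9 and Tap1. A match is a description of the letters, not of binding.

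After FGF19, RNA of 6 of the 10 genes rose at an adjusted p under 0.05: H2-D1, Tap2, Tapbp, Psmb8, Psmb9 and Psmb10. Of the immunoproteasome genes, Psmb10 rose 2.79-fold and Psmb8 2.38-fold, the largest fold changes of the 10, and Psmb9 rose 1.83-fold. Tapbp rose 1.83-fold, Tap2 1.72-fold and H2-D1 1.39-fold. H2-K1, B2m, Tap1 and Psme1 did not pass the test, and 0 of the 10 were lower by edgeR, DESeq2 or limma-voom, also at an unadjusted p under 0.05, where 11.6% of all genes tested were higher and 11.3% lower. Over all genes tested, 4.56% were higher and 2.84% lower at an adjusted p under 0.05, in all 7.41%. The median log2 fold change of the 10 genes was 0.63, against 0.00 (−0.000763) over all genes tested. At the threshold of the study, p under 0.01, the count was also 6 higher and 0 lower, where 6.20% of all genes were higher and 4.98% lower. In 7 of the 10 genes every FGF19 library was above every Vehicle library, which held for 14.5% of all genes tested, and in 0 of the 10 was it below, which held for 13.8%.

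**Figure D1:**
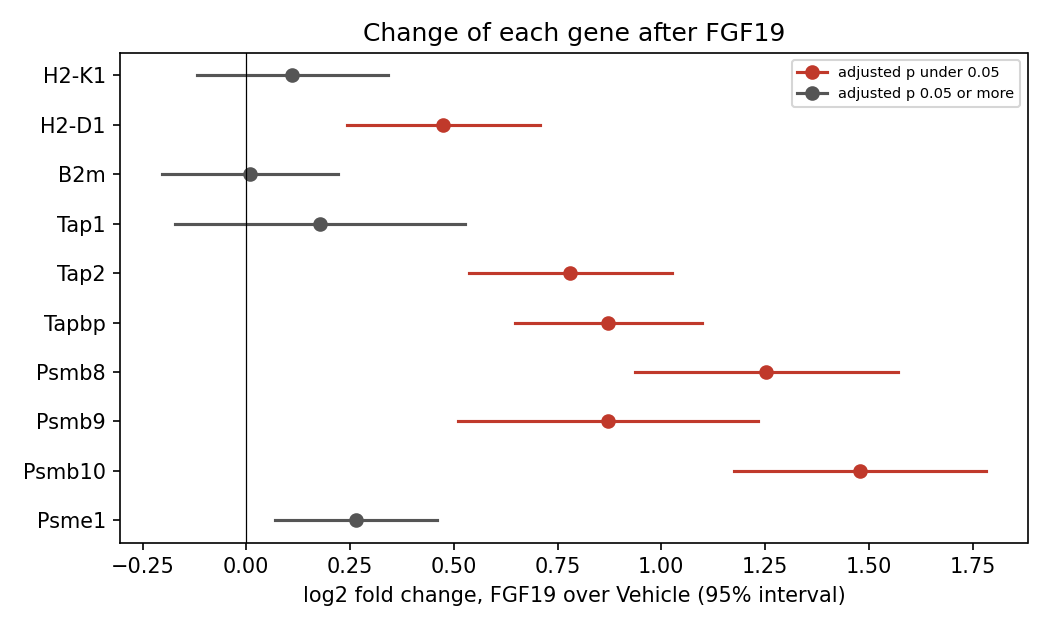
Log2 fold change of each of the 10 genes, FGF19 over Vehicle, estimated with edgeR on 3 against 3 libraries; points are estimates, lines are 95% intervals, red marks an adjusted p under 0.05. Psmb10 lies farthest right at 1.48 and B2m lies at 0.01.

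The genes differ widely in level, so their levels are compared per length, as RPKM (CPM divided by the exon length in kilobases). In the Vehicle livers B2m was highest at 1769 ± 132 RPKM (SD, n = 3), followed by H2-K1 at 780 ± 73.5 RPKM (SD, n = 3) and H2-D1 at 294 ± 30.5 RPKM (SD, n = 3). The chains that form the displayed molecule were thus the most abundant part of the list. Psme1 was at 85.3 ± 2.99 RPKM and Tapbp at 28.7 ± 3.09 RPKM (SD, n = 3 each). Psmb10, Psmb8, Psmb9 and Tap2 followed at 14.6, 14.5, 11.5 and 9.61 RPKM, and Tap1 was lowest at 7.53 ± 1.49 RPKM (SD, n = 3). From Psmb10 down to Tap1, the ranges of neighbours in this order overlapped between libraries, but within each of the 3 Vehicle libraries Psmb8 was above Psmb9, Psmb9 above Tap2 and Tap2 above Tap1. Psmb10 and Psmb8 changed places between libraries, and the lowest Psmb10 value, 13.1 RPKM, was above the highest Tap1 value, 8.91 RPKM. In the FGF19 livers Psmb10 was at 40.6 ± 6.88 RPKM and Psmb8 at 34.5 ± 2.12 RPKM, and both lay below Tapbp, at 52.6 ± 3.04 RPKM (SD, n = 3 each).

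**Figure D2:**
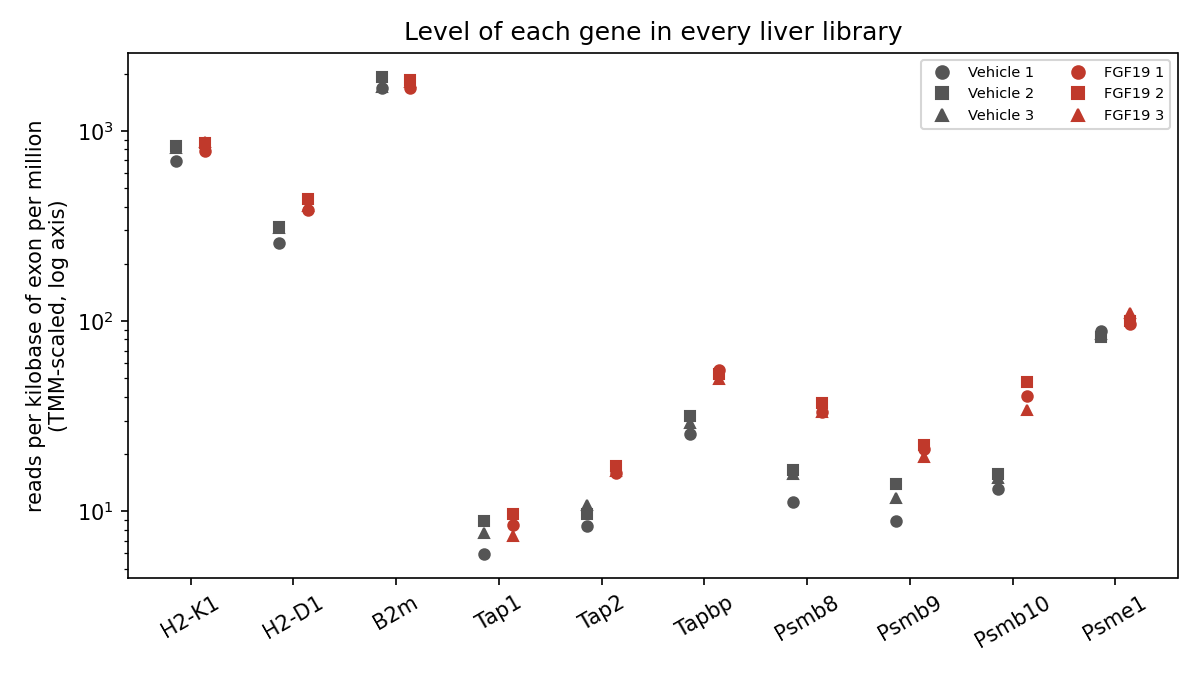
Level of each gene in every library, in RPKM on a log axis; gray symbols are Vehicle and red symbols FGF19 libraries, and circle, square and triangle are replicates 1, 2 and 3. B2m sits between 1683 and 1922 RPKM in the Vehicle libraries, and Tap1 between 5.95 and 8.91 RPKM.

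Of the class I chains, H2-D1 rose and H2-K1 and B2m did not pass the test. H2-D1, a classical class I heavy chain, was at 449, 544 and 536 CPM in Vehicle replicates 1, 2 and 3 and at 669.7, 759.0 and 696 CPM in FGF19 replicates 1, 2 and 3. Every FGF19 library was above every Vehicle library. Its log2 fold change was 0.48 (SE 0.103, adjusted p = 0.0252 by edgeR). This call was lost when Vehicle replicate 1 (adjusted p = 0.0741), Vehicle replicate 3 (0.0779), FGF19 replicate 1 (0.0640) or FGF19 replicate 2 (0.103) was left out, while the log2 fold change over all 13 alternatives stayed between 0.39 and 0.52.

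H2-K1, the other classical heavy chain of these mice, was at 1145, 1366 and 1340 CPM with vehicle and at 1285, 1428 and 1443 CPM with FGF19, in replicate order. FGF19 replicate 1 lay within the range of the Vehicle libraries. The log2 fold change was 0.11, with a 95% interval from −0.12 to 0.34, so that a rise above 1.27-fold lay outside the interval (edgeR, adjusted p = 0.580). B2m, the light chain shared by all class I molecules, was at 1444, 1649 and 1462 CPM with vehicle and 1446, 1579 and 1555 CPM with FGF19. The groups overlapped throughout. Its log2 fold change was 0.01, with a 95% interval from −0.20 to 0.22 (edgeR, adjusted p = 0.973), and it turned slightly negative in 4 of the 6 fits that left out a library, the lowest at −0.03 without Vehicle replicate 1.

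The ratio of H2-K1 to H2-D1 within a library needs no scaling between libraries. Per kilobase, H2-K1 reads were 2.66 times those of H2-D1 in the Vehicle livers and 2.06 times in the FGF19 livers. The log2 ratio was 1.43, 1.41 and 1.40 in Vehicle replicates 1, 2 and 3 and 1.02, 0.99 and 1.13 in FGF19 replicates 1, 2 and 3. All FGF19 libraries were below all Vehicle libraries, by 0.37 in the mean, and the two-sided exact permutation test gave p = 0.1, the smallest p that 3 against 3 mice allow. The annotation lists 276 bases of an H2-D1 exon, chr17:35402729-35403004 in mm9, also under the gene LOC547349, and reads that touch 2 genes were left out, so that the level of H2-D1 is understated in all libraries. LOC547349 itself held between 0 and 3 counts.

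The longest H2-K1 and H2-D1 transcripts of the GENCODE annotation were identical at 90.8% of 1567 aligned bases. Even so, 0 of 1506 windows of 100 bases in H2-K1 and 93 of 2003 windows (4.64%) in H2-D1 recurred exactly in a transcript of another gene, among them H2-Q6, H2-T23 and H2-T22. None of the windows of the other 8 genes recurred. Reads with mismatches were not modelled, and how reads were divided among these heavy chains is therefore uncertain.

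The peptide loading genes split in the same manner, with Tapbp and Tap2 higher and Tap1 not past the test. Tapbp was at 70.2, 87.1 and 79.8 CPM with vehicle and at 153, 145 and 136 CPM with FGF19, in replicate order. The lowest FGF19 library stood above the highest Vehicle library. Its log2 fold change was 0.87 (SE 0.101, adjusted p = 0.00122 by edgeR). Tap2 was at 20.8, 24.2 and 26.9 CPM with vehicle and at 39.7, 42.9 and 40.8 CPM with FGF19, again without overlap. Its log2 fold change was 0.78 (SE 0.109, adjusted p = 0.00317 by edgeR). Both calls held in all 13 alternatives.

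Tap1, which encodes the partner of TAP2 in the transporter, was at 17.5, 26.3 and 22.8 CPM with vehicle and at 24.9, 28.4 and 21.9 CPM with FGF19. The groups overlapped, with FGF19 replicate 3 below Vehicle replicates 2 and 3. The log2 fold change was 0.18, with a 95% interval from −0.17 to 0.53 (edgeR, adjusted p = 0.552). Per kilobase, Tap1 reads were 0.777 times those of Tap2 in the Vehicle livers and 0.513 times in the FGF19 livers. The log2 ratio lay between −0.49 and −0.12 with vehicle and between −1.14 and −0.84 with FGF19, without overlap (difference −0.60, two-sided exact permutation test, p = 0.1).

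The immunoproteasome genes rose together. Psmb10, the inducible subunit that replaces PSMB7, was at 16.7, 19.9 and 18.9 CPM in Vehicle replicates 1, 2 and 3 and at 51.2, 60.5 and 43.1 CPM in FGF19 replicates 1, 2 and 3. Each FGF19 library held more than every Vehicle library by a wide margin. The log2 fold change was 1.48 (SE 0.135, adjusted p = 0.000335 by edgeR), the largest of the 10 genes. Psmb8, the subunit that replaces PSMB5, was at 13.7, 20.2 and 19.1 CPM with vehicle and at 40.8, 45.1 and 40.5 CPM with FGF19. Its groups were also apart, and its log2 fold change was 1.25 (SE 0.141, adjusted p = 0.00108 by edgeR). Both calls held in all 13 alternatives.

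Psmb9, the subunit that replaces PSMB6, was the least abundant of the 10 genes in CPM, with counts from 150 to 211 in the Vehicle libraries and from 345 to 390 in the FGF19 libraries. It was at 7.15, 11.2 and 9.43 CPM with vehicle and at 17.2, 17.9 and 15.6 CPM with FGF19. The groups did not overlap. The log2 fold change was 0.87 (SE 0.161, adjusted p = 0.0126 by edgeR), and the adjusted p was 0.0587 without Vehicle replicate 3 and 0.0512 without FGF19 replicate 2. Its neighbour Tap1, which starts 225 bases away on the other strand, did not pass the test, and Psmb9 reads per kilobase were 1.52 times those of Tap1 with vehicle and 2.47 times with FGF19. This pair was chosen after its values were seen and was not tested.

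Psme1 encodes PA28α, a subunit of the 11S activator that opens the proteasome. It was at 86.2, 80.3 and 83.6 CPM with vehicle and at 94.5, 97.6 and 108 CPM with FGF19. Every FGF19 library was above every Vehicle library, yet the log2 fold change of 0.26 (95% interval 0.07 to 0.46) had an adjusted p of 0.104 by edgeR, and it passed 0.05 in 0 of the 13 alternatives. The interval excludes a rise above 1.37-fold. Psme1 shares 4 exon bases with Fam158a on the opposite strand. Psme2, which encodes the partner subunit PA28β, was at 46.6, 47.2 and 46.0 CPM with vehicle and at 59.5, 63.5 and 64.6 CPM with FGF19. It passed the test with a log2 fold change of 0.43 (adjusted p = 0.0138 by edgeR), a call that was lost when Vehicle replicate 1, Vehicle replicate 3 or FGF19 replicate 2 was left out (adjusted p up to 0.0743). The log2 ratio of Psme1 to Psme2 was 0.84 ± 0.0625 with vehicle and 0.68 ± 0.0633 with FGF19 (SD, n = 3 each), without overlap (two-sided exact permutation test, p = 0.1).

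The constitutive subunits that the inducible ones replace did not pass the test. Psmb5 was at 36.2 ± 3.25 CPM with vehicle and 36.5 ± 5.52 CPM with FGF19, Psmb6 at 130.5 ± 5.78 and 128 ± 7.34 CPM, and Psmb7 at 118 ± 8.04 and 114 ± 2.11 CPM (SD, n = 3 each). The ratio of inducible to constitutive reads per kilobase compares each pair within a library. Psmb8 reads were 0.344 times those of Psmb5 with vehicle and 0.828 times with FGF19. Psmb10 reads were 0.119 times those of Psmb7 with vehicle and 0.343 times with FGF19, and Psmb9 reads 0.0897 and 0.170 times those of Psmb6. The mean log2 ratios differed by 1.27, 1.52 and 0.92 between the groups. In all 3 pairs every FGF19 library was above every Vehicle library, and each two-sided exact permutation p was 0.1, as was the Benjamini-Hochberg value over the 6 pairs tested.

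**Figure D3:**
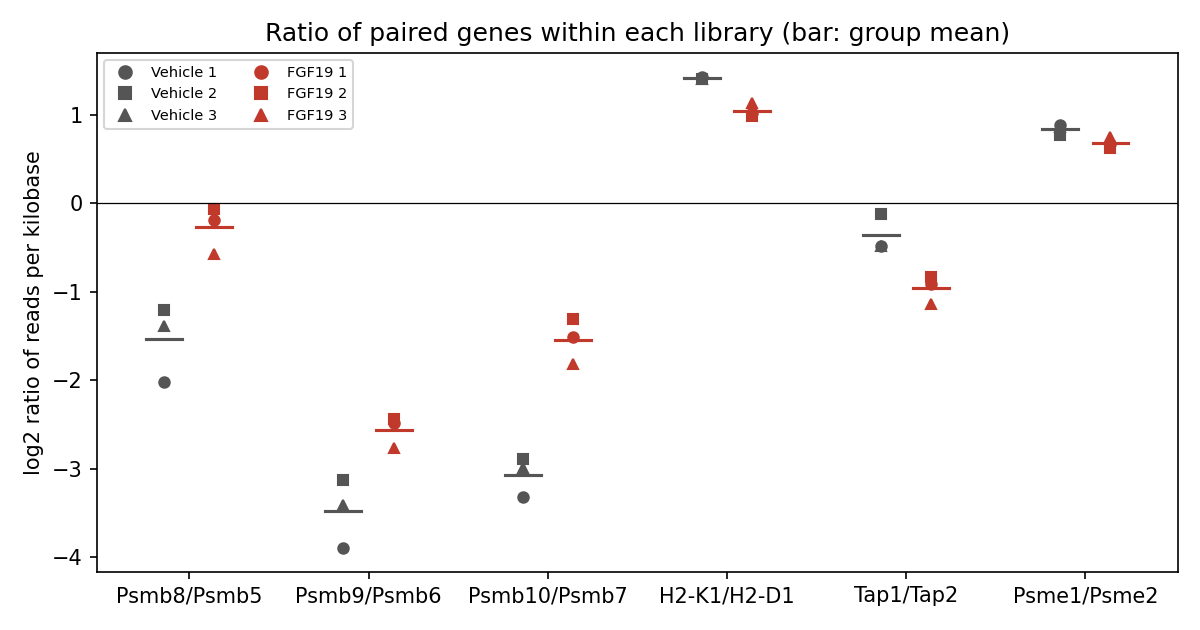
Log2 ratio of reads per kilobase for 6 pairs of genes within each library; gray symbols are Vehicle, red symbols FGF19, shapes are replicates, and short bars are group means. The ratio of Psmb8 to Psmb5 runs from −2.02 to −1.21 in the Vehicle libraries and from −0.57 to −0.06 in the FGF19 libraries.

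Among the Vehicle libraries, replicate 1 was below the mean of its group in 9 of the 10 genes, with Psme1 as the exception. Vehicle replicates 2 and 3 were each above it in 9 of 10. On the log2 scale, the median distance of the 10 genes from their Vehicle mean was −0.17, 0.12 and 0.05 in the 3 Vehicle libraries and 0.57, 0.71 and 0.62 in the 3 FGF19 libraries. Leaving out Vehicle replicate 1 left 5 of the 6 calls. Leaving out any 1 of the 6 libraries gave from 4 to 6 calls, and those of Tap2, Tapbp, Psmb8 and Psmb10 stood in each of these 6 fits.

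Other genes of the pathway were taken from lists made for this tissue and treatment, with 68 genes listed and 60 tested. Of these, 6 were higher and 0 lower at an adjusted p under 0.05, beside 4.56% and 2.84% of all genes tested, and at an unadjusted p under 0.01 there were 8 higher and 0 lower. Without FGF19 replicate 3, there were 12 higher and 1 lower, and without Vehicle replicate 3 there were 3 higher. DESeq2 and limma-voom each gave 6 higher and 0 lower.

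Among 19 other class I and class I-like chains, 14 were tested and 1 rose, H2-Q4, beside 4.56% of all genes tested. It was at 32.8, 43.5 and 46.0 CPM with vehicle and 60.7, 69.3 and 56.1 CPM with FGF19 (log2 fold change 0.61, adjusted p = 0.0282 by edgeR). This call was lost in 5 of the 6 fits that left out a library, all except the one without FGF19 replicate 3, with an adjusted p of up to 0.104. The median log2 fold change of the 14 was 0.17. H2-Q10, whose product the liver secretes, was at 1300 ± 102.5 CPM with vehicle and 1155 ± 149 CPM with FGF19 (SD, n = 3 each) and did not pass the test (adjusted p = 0.425 by edgeR). H2-Q7, H2-T3 and H2-T9 were listed at 0 in every library and H2-T22 at 0 to 4 counts, and since reads that align to several places were left out, these values do not show how much of their RNA was present.

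Among 10 other loading and trimming genes, 3 rose, beside 4.56% of all genes tested, and the median log2 fold change was 0.33. Tapbpl, which encodes the tapasin-related peptide editor TAPBPR, was at 15.3, 18.4 and 17.03 CPM with vehicle and 35.1, 39.2 and 30.3 CPM with FGF19 (log2 fold change 1.05, adjusted p = 0.00129 by edgeR). Calr and Pdia3 encode calreticulin and ERp57, general chaperones of the endoplasmic reticulum that also sit in the peptide loading complex. Their log2 fold changes were 1.00 and 0.93 (adjusted p = 0.000420 and 0.00154 by edgeR). All 3 calls held in all 13 alternatives. The window of Calr held the ERSE letters, and that of Pdia3 held none of the letters searched. Both were searched after their values were seen. Erap1, the peptidase that trims peptides in the endoplasmic reticulum, had a log2 fold change of 0.26 and did not pass the test (adjusted p = 0.375 by edgeR).

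The 14 constitutive subunits of the 20S core had a median of 0.07, and 0 passed an adjusted p under 0.05 by edgeR, DESeq2 or limma-voom. At an unadjusted p under 0.05, 3 of the 14 were higher by edgeR, against 11.6% of all genes tested, among them Psma1 and Psma5 with adjusted p of 0.0829 and 0.0654. Of 8 other activator and assembly genes, Psme2 was the 1 that rose, beside 4.56% of all genes tested. Of the regulators of class I transcription, 10 were tested, 4 of them with a positive log2 fold change, and the median was −0.02. Neither Nlrc5 nor Irf1 passed the test (adjusted p = 0.974 and 0.839 by edgeR). Rfxank had a log2 fold change of 0.49 with overlapping groups and did not pass either (adjusted p = 0.106 by edgeR). The coactivator Nlrc5 was at 21.0 ± 1.77 CPM with vehicle and 20.9 ± 1.52 CPM with FGF19, and the factor Irf1 at 29.4 ± 8.72 and 27.5 ± 4.88 CPM (SD, n = 3 each).

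The interferon-γ gene Ifng held 0 counts in 5 libraries and 2 in FGF19 replicate 2, and Ifnb1 held 0 in every library, at or below the 3 counts that a count of 0 allows. The 4 interferon receptor genes had log2 fold changes between −0.10 and 0.23, and 0 passed by edgeR, DESeq2 or limma-voom, also at an unadjusted p under 0.05. The 8 genes of MHC class II presentation, the counterpart pathway of professional antigen-presenting cells, had a median of 0.19, with 0 called by the same 3 tools, also at an unadjusted p under 0.05.

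**Figure D4:**
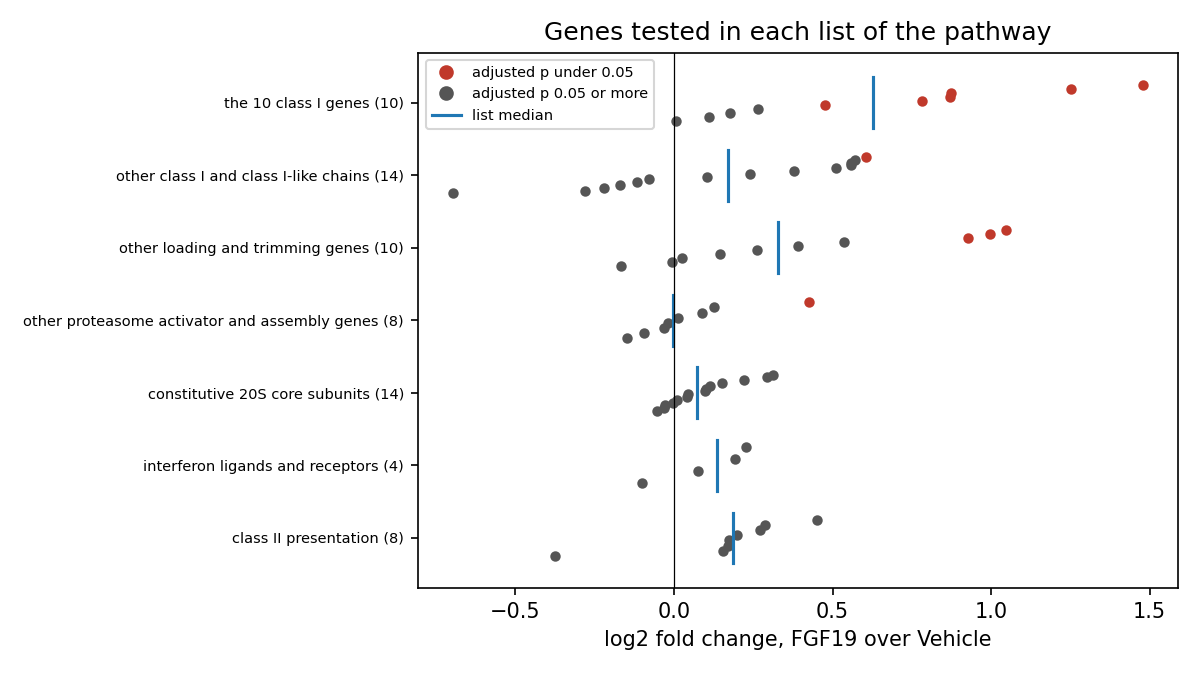
Log2 fold change, FGF19 over Vehicle, of every gene tested in 7 of the lists, with the number tested in parentheses; red points have an adjusted p under 0.05 and blue bars are list medians. The 10 class I genes have a median of 0.63, and the 14 constitutive core subunits 0.07.

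The liver samples hold other cells that express class I genes strongly, and in such bulk samples fewer cells of a type and less RNA per cell cannot be told apart. The 12 genes listed for T and NK cells include Ptprc, which leukocytes in general express. Together the 12 summed to between 8.48 and 11.0 CPM in the Vehicle libraries and between 11.7 and 15.7 CPM in the FGF19 libraries. Ptprc alone was at 5.33 CPM with vehicle and 7.85 CPM with FGF19 in the mean (adjusted p = 0.118 by edgeR). These sums are therefore not specific to T and NK cells. By edgeR, DESeq2 and limma-voom 0 were called. At an unadjusted p under 0.05, 2 of 6 were higher by edgeR, Ptprc and Gzma, 1 of 12 by DESeq2 and 3 of 6 by limma-voom, with 0 lower. Over all genes tested by edgeR, 11.6% were higher and 11.3% lower at this threshold, and 4.56% and 2.84% at an adjusted p under 0.05. Of the 6 tested, 5 had a positive log2 fold change, all except Cd4. In Cd3e and Gzmb every FGF19 library was above every Vehicle library, which held for 14.5% of all genes tested. The largest log2 fold change was that of Gzma, at 0.283 CPM with vehicle and 0.705 CPM with FGF19 in the mean (adjusted p = 0.164 by edgeR). The neutrophil and monocyte markers, 8 of 9 found, summed to 2.10 to 3.23 CPM with vehicle and 5.57 to 8.09 CPM with FGF19. S100a9 was the 1 called of 3 tested, with 0.498 CPM against 2.25 CPM in the mean (adjusted p = 0.0292 by edgeR, and up to 0.0939 with a library left out). At an unadjusted p under 0.05, 2 of 3 were higher by edgeR, 4 of 8 by DESeq2 and 2 of 3 by limma-voom, with 0 lower. Ccr2 was at 0.849 CPM with vehicle and 1.75 CPM with FGF19 in the mean, with every FGF19 library above every Vehicle library (adjusted p = 0.0537 by edgeR). S100a8 held 2 to 8 counts with vehicle and 9 to 38 with FGF19, Retnlg 1 to 3 and 5 to 12, and Mpo at most 1 in any library. The B cell markers summed to 3.43 to 6.31 CPM with vehicle and 1.68 to 3.86 CPM with FGF19, with 0 of 4 called by edgeR, DESeq2 or limma-voom and 1 lower at an unadjusted p under 0.05. The 4 dendritic cell markers summed to 1.33 to 3.07 CPM with vehicle and 2.81 to 3.58 CPM with FGF19.

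The 10 Kupffer cell markers summed to 298 to 358 CPM with vehicle and 286 to 355 CPM with FGF19. Marco was the 1 of them that rose (6.15 against 30.2 CPM in the mean, adjusted p = 0.00105 by edgeR). Vsig4 was at 20.02 ± 3.91 CPM with vehicle and 13.7 ± 1.93 CPM with FGF19 (SD, n = 3 each), with every FGF19 library below every Vehicle library, and was called lower by DESeq2 but not by edgeR (adjusted p = 0.0755) or limma-voom. At an unadjusted p under 0.05 by edgeR, 2 of the 10 were higher and 1 lower, beside 11.6% and 11.3% of all genes tested. The 7 sinusoidal endothelial markers summed to 262 to 282 CPM with vehicle and 249.5 to 275 CPM with FGF19, with 0 called by edgeR and limma-voom, 1 lower by DESeq2 and 1 lower at an unadjusted p under 0.05 by edgeR. Of the 6 stellate cell markers 1 was called lower, Colec11, from 32.5 to 19.3 CPM in the mean (adjusted p = 0.00878 by edgeR). At an unadjusted p under 0.05 by edgeR, 2 of the 6 were lower, Colec11 and Reln, and 1 was higher, Lrat. In Colec11 and Reln every FGF19 library was below every Vehicle library. Of 5 cholangiocyte markers 0 were called by edgeR, DESeq2 or limma-voom. At an unadjusted p under 0.05, 0 of the 5 changed by edgeR or DESeq2 and 1 was lower by limma-voom. The part of these cells in the rise of the class I genes was not tested.

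The genes whose levels most resembled the 10 over the 6 libraries were found by Pearson's r with the mean of their standardised log2 CPM, among genes on no list and at a mean of at least 1 CPM. The 5 highest were Trmt6 (r = 0.999), Ripk3 (0.994), Tmsb4x (0.989), Alg8 (0.989) and Atp11a (0.989). Trmt6 encodes a subunit of a tRNA methyltransferase, Ripk3 a kinase of necroptosis, Tmsb4x thymosin β4, Alg8 a glucosyltransferase of N-glycan assembly and Atp11a a phospholipid flippase. These values are a description of 6 libraries that share the contrast between the groups, and in each of the 5 genes every FGF19 library was above every Vehicle library.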

How the data were processed

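Liver mRNA was measured in 6 mice, 3 per group, with groups taken from the sample labels. Per the file headers, the authors deposited raw counts of reads on exons of an mm9 annotation from featureCounts 1.5.2, without use of strand, with mates counted separately and without reads that align to several places or touch 2 genes. Adapters and alignment were handled with Trimmomatic 0.36 and STAR, which the submitters' processing notes give as 2.5.3a and the methods as another version. The authors' own table of fold changes, mean log2 CPM, p-values and FDR was not used.

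Under R 4.3.3, edgeR 4.0.16 was run on these counts with filterByExpr, TMM scaling and the quasi-likelihood test of FGF19 against Vehicle without covariates. A call is an adjusted p under 0.05, and the study's p under 0.01 was also counted. The study names edgeR without the kind of test. RPKM are TMM-scaled CPM per kilobase of listed exon. The alternatives were DESeq2 1.42.0, no TMM, no filter, a minimum of 1 CPM in all libraries, edgeR's likelihood ratio test, limma-voom (limma 3.58.1), a replicate block and each library left out. Tests were tried on simulated data. The mm9 genome had splice bases at 72 of 72 introns of the 10 genes.

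The genes and lists were chosen with earlier results of these data known. One gene of the lists is counted in the totals but not reported here. Named genes were the 10 genes, called genes of lists with 5 or fewer calls, and the 5 most alike. Other genes named from the lists were picked for their role or their values, after the values were seen. No pair of libraries agreed within sampling noise (chi-square per degree of freedom between 8.25 and 39.4 within groups).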

Additional observations from a re-analysis of the deposited data

How the results depend on the processing

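The count of 6 higher and 0 lower class I genes was the same with DESeq2, no TMM, no filter, a minimum of 1 CPM in all libraries, edgeR's likelihood ratio test, limma-voom and the replicate block, was 4 at an adjusted p under 0.01, and was between 4 and 6 with a library left out. The replicate numbers only name the mice: same-numbered libraries had correlated deviations of −0.03, −0.18 and −0.18, and the block gave 370 higher and 164 lower genes in place of 573 and 357. Under the block Psme2 had an adjusted p of 0.0640 by edgeR, and the calls of the 6 class I genes did not change. Over all genes, the likelihood ratio test gave 579 lower, an adjusted p under 0.01 gave 228 higher and 80 lower, p under 0.01 gave 626 lower, and leaving out a library gave from 236 (Vehicle replicate 3 out) to 1015 (FGF19 replicate 3 out) higher and from 91 (FGF19 replicate 2 out) to 926 (FGF19 replicate 3 out) lower. The other genes of the pathway gave 3 higher at an adjusted p under 0.01, and with a library left out between 3 and 12 higher and between 0 and 1 lower. With a library left out the log2 fold change of B2m ran from −0.02685 (Vehicle replicate 1 out) to 0.0708 (Vehicle replicate 2 out), and was also below 0 at −0.0171, −0.00848 and −0.000688 with Vehicle replicate 3, FGF19 replicate 2 or FGF19 replicate 3 out. The cause of these shifts was not tested. All 6 ratios of paired genes kept their direction with a pseudocount of 1 and with each library left out. With 3 mice per group, differences as small as that of Psme1 may go uncalled.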
